A study of Mus musculus with 2 samples.

Results

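The subunits of the receptors through which cells sense glutamate, GABA, glycine and acetylcholine were followed through the cell types of a brain and a lung library of Nestin-GFP+ (Nes-GFP+) cells. The set held every gene whose symbol starts with Gria, Grik, Grin1, Grin2, Grin3, Grm and a digit, Gabra, Gabrb, Gabrg, Gabbr, Glra, Chrna, Chrnb or Chrm and that had at least 20 unique molecular identifiers (UMIs, each the tag of 1 captured RNA molecule) over all barcodes of both libraries. Of the 25814 genes with counts, 56 had such a symbol and 42 of these reached the minimum, with Grm4 and Chrna5 lowest at 22 UMIs each and Gabra5 highest among the 14 left out at 15 UMIs. The members were 4 AMPA, 5 kainate, 6 NMDA, 6 metabotropic glutamate, 10 GABA-A, 2 GABA-B, 1 glycine, 5 nicotinic and 3 muscarinic receptor genes, and 29 of them had at least 100 UMIs.

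The study sorted GFP+ cells from both organs, as a way to enrich neural stem cells (NSCs), and sequenced them to describe the identity of such cells in the adult lung. Both groups, brain and lung, came from mice about 6 weeks old with a transgene in which Nestin regulatory sequence drives GFP, and were dissociated with trypsin and made into 1 droplet library per organ. The labels give the strain C57BL/6, whereas the methods describe wild-type CD1 or mixed CD1 and C3H stock to which the transgenic lines were bred, and how many animals went into a library was not given in the sources used here. With 1 library per organ no test between groups was possible, so organ and library cannot be told apart, and every interval below is a 95% interval that covers counting error only.

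These receptors fall into ligand-gated channels (AMPA, kainate and NMDA receptors for glutamate, GABA-A and glycine receptors for inhibitory transmitters, nicotinic receptors for acetylcholine) and receptors that act through G proteins (metabotropic glutamate, GABA-B and muscarinic receptors). A channel is put together from several subunits, and the subunits present set its ion flow, kinetics and drug sensitivity. Glia and precursor cells carry them too: astrocytes and NSCs sense GABA and glutamate released nearby, migrating neuroblasts of the adult forebrain respond to GABA and glutamate, and oligodendrocyte precursor cells (OPCs) receive direct synapses from neurons.

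Cells were placed in gates by marker genes that are not members. The brain library kept 4151 cells (median 4209 UMIs per cell) and the lung library 5608 (median 5585), of which 472 and 1409 entered no gate. All 8 astroglial markers were detected in the 62 quiescent NSC (qNSC) cells, which Gfap and Thbs4 separated from 399 astrocyte cells, and 7 of 8 OPC markers in the 159 OPC cells. Cells entered the gates by these same markers, so their detection follows from the rule and adds nothing on identity. Genes of mature neurons (8 listed) summed to 123 CPM (UMIs per 1000000 UMIs of the gate) in the neuroblast gate, 81.6 CPM in OPCs and 49.7 CPM in astrocytes, with Slc17a7 at 0 in the OPC gate and Nefm and Neurod6 at 0 in astrocytes. Scrublet called 1.06% of brain and 1.32% of lung cells doublets, which were kept, and 15 barcodes occurred in both libraries. Free RNA was gauged with Gria2, the member with most UMIs in brain, in gates outside the neuronal, astroglial and oligodendrocyte lineages. It was at 54.8 CPM (8 UMIs) in microglia, 41.5 CPM (18 UMIs) in mural cells and 26.5 CPM (31 UMIs) in endothelial cells, against 2.99 and 1.52 CPM (1 UMI each) in fibroblasts and ependymal cells, with median depths of 2560 to 6835 UMIs, and how much of this was free RNA was not tested.

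Receptor transcripts were spread very unevenly over the brain gates. The 42 genes together took 3135 CPM in astrocytes, 2537 CPM in OPCs, 1495 CPM in qNSCs and 932 CPM in neuroblasts, against 255 CPM in ependymal, 129 CPM in endothelial and 130.0 CPM in microglial cells. Progenitors lay between these groups, at 679 CPM in activated progenitors (91 cells with at least 2 of 3 activation genes) and 319 CPM in 64 cycling progenitors. The astrocyte sum was 2.1-fold (1.86 to 2.37) that of qNSCs, the OPC sum 2.72-fold (2.59 to 2.86) that of neuroblasts and the activated progenitor sum 0.454-fold (0.39 to 0.529) that of qNSCs. The families are described below one by one; since UMIs tag transcript ends and are not scaled to length, a gene is compared with itself across gates, and a family's make-up is given as a share of UMIs.

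**Figure D1:**
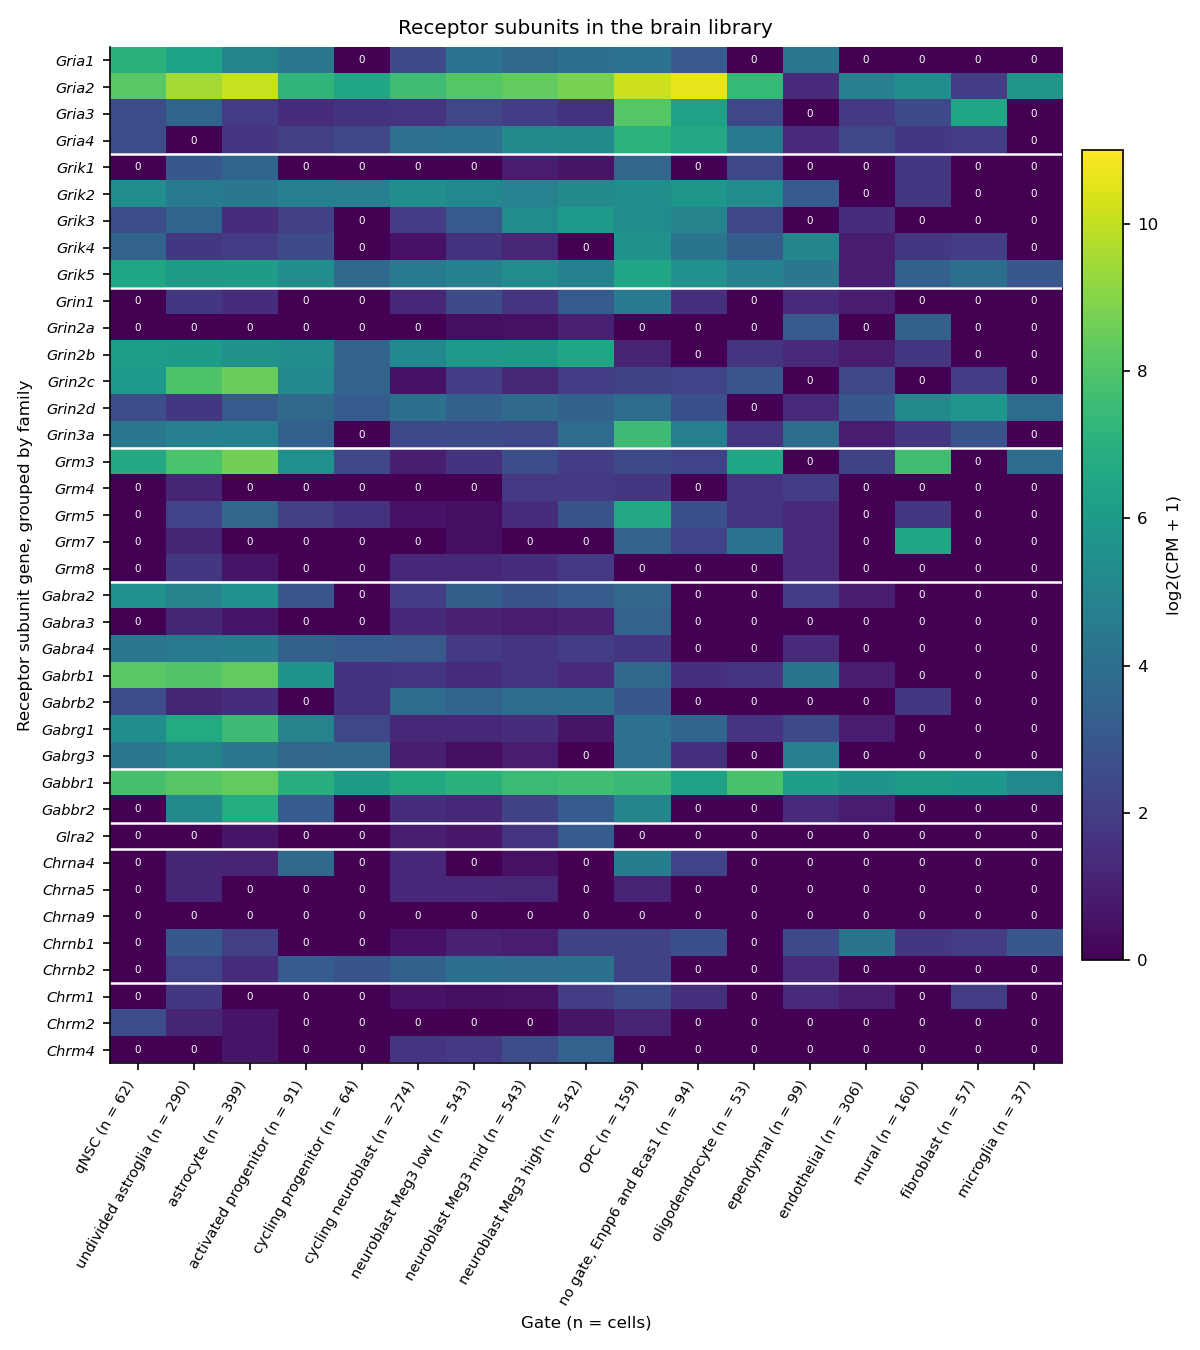
Level of 38 of the 42 members (rows, grouped by family) in 17 brain gates (columns, n = cells), as log2(CPM + 1) of UMIs summed over the cells of a gate, with 0 marking no UMI; rows are to be read along, not against each other. Gria2 is bright from qNSCs to OPCs and dark in ependymal cells, Gria3 and Grin3a brighten in OPCs, and Grm3 and Grm7 in mural cells.

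AMPA receptors carry most fast excitatory transmission, and GluA2, the product of Gria2, makes them impermeable to calcium. Gria2 (chr3:80681450-80802835, minus strand, mm10) was at 1554 CPM (95% interval 1451 to 1662, 845 UMIs) in 94 cells outside the gates with Enpp6 and Bcas1, genes of oligodendrocytes that have just left the precursor state, at 1143 CPM (1073 to 1216, 994 UMIs) in OPCs and at 1070.0 CPM (1023 to 1118, 1960 UMIs) in astrocytes. It was lower in neuroblasts, at 337 CPM (324 to 351, 2462 UMIs), and in qNSCs, at 292 CPM (221 to 378, 57 UMIs). After each cell was thinned to 1000 UMIs, Gria2 was found in 67.8% of OPCs, 62.1% of astrocytes, 25.6% of neuroblasts and 23.7% of qNSCs (unthinned, 95%, 91.2%, 64.2% and 40.3%). Gria2 was thus higher in astrocytes, OPCs and the cells with Enpp6 and Bcas1 than in neuroblasts and qNSCs, the last pair being 1.16-fold (0.889 to 1.53) apart. It shares exon bases on the same strand with Gm25749, a gene with counts, so the counts of the pair may not be separate.

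The other AMPA subunits parted the gates more sharply. Gria1 (chr11:57011387-57330244, plus strand), the GluA1 subunit that moves into synapses with activity, had its highest brain level in qNSCs at 133 CPM (95% interval 86.9 to 195, 26 UMIs), where it made up 30.6% of AMPA UMIs. It was 4.28-fold (2.58 to 6.91) higher there than in astrocytes (31.1 CPM, 57 UMIs) and 8.53-fold (5.34 to 13.1) higher than in neuroblasts (15.6 CPM, 114 UMIs), while the next gate in order, astroglia that neither Gfap and Thbs4 nor Slc7a10 and Cxcl14 assigned, differed by 1.6-fold (0.98 to 2.55), an interval that includes 1. The 26 qNSC UMIs came from 11 of 62 cells.

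Gria3 and Gria4, which code for GluA3 and GluA4, belonged to the OPC gate. Gria3 (chrX:41400854-41678601, plus strand) was at 274 CPM (95% interval 239.9 to 311, 238 UMIs) in OPCs and at 3.15 CPM (2 to 4.72, 23 UMIs) in neuroblasts, 86.9-fold (56.5 to 139.7) apart, with 77.2 CPM (42 UMIs) in the cells with Enpp6 and Bcas1, 5 UMIs in astrocytes and 1 in qNSCs. It was also one of the 10 leading genes of the OPC gate. Outside the neural gates it had 89.6 CPM (30 UMIs) in 57 brain fibroblasts. Gria4 was at 139 CPM in OPCs, 97.4 CPM in the cells with Enpp6 and Bcas1, 28.5 CPM in neuroblasts and 2.18 CPM in astrocytes. Of 159 OPCs, 106 had a UMI of both Gria2 and Gria3, and 71 of both Gria2 and Gria4. Gria2 made up 96.7% of AMPA UMIs in astrocytes and 87.7% in neuroblasts but 72.7% in OPCs, where Gria3 added 17.4% and Gria4 8.85%. As a family, AMPA transcripts were 3.61-fold (2.9 to 4.55) higher in OPCs and 2.54-fold (2.05 to 3.2) higher in astrocytes than in qNSCs, and the ratio of neuroblasts to qNSCs was 0.883-fold (0.712 to 1.11).

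The promoter sequences of the members were searched for the core of the RE1 element, the motif bound by REST, a repressor of neuronal genes in cells outside the nervous system, because Gria2 had 0 UMIs in the whole lung library. RefSeq promoter windows (GRCm38.p6, 250 bases before to 50 after a start) were found for 29 of the 42 members, and AGCACC, any 2 bases and GGACAG were searched as 1 run on both strands. The exact core lay in windows of 16 of 27025 genes (0.0592%) and, among the members, of Gria2 alone. With up to 1 mismatch it lay in those of 111 genes (0.411%), with Gabrb1 and Grin1 as the other two members, and with up to 2 mismatches in 1375 genes (5.09%) and 7 members. The 250 bases before the start of these 3 genes are shown 5′ to 3′ on the gene's strand, with the core in capitals, at chr3:80802836-80803085 (minus strand, exact, core read on the opposite strand, first base at -170), chr2:25319188-25319437 (minus strand, 1 mismatch, opposite strand, -126) and chr5:71699682-71699931 (plus strand, 1 mismatch, same strand, -119, before a start inside the gene).
Gria2: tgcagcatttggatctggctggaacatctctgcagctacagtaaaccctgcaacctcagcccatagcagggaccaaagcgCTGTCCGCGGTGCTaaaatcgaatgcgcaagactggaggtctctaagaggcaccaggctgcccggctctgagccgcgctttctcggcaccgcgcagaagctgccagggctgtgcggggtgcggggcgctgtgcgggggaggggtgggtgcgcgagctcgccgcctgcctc
Grin1: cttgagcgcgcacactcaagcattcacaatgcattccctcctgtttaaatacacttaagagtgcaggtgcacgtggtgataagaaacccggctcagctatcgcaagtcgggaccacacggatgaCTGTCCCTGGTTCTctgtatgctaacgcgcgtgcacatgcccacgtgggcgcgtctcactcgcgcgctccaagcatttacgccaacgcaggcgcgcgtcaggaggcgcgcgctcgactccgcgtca
Gabrb1: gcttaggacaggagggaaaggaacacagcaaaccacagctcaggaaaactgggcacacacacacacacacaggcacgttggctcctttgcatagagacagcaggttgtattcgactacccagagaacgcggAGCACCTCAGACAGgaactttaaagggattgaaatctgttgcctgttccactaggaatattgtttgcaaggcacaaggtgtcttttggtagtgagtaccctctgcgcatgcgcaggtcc
The levels of these 3 genes took different courses over the gates: Gria2 was high in OPCs and astrocytes, Gabrb1 in qNSCs and astrocytes, and Grin1 had 23 CPM (20 UMIs) in OPCs. A motif match is a description of the window, and its use in these cells was not tested.

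Kainate receptors pair a low-affinity subunit (Grik1, Grik2, Grik3) with a high-affinity one (Grik4, Grik5). Grik5 had UMIs in every brain gate, with 88.5 CPM (77 UMIs) in OPCs, 87 CPM (17 UMIs) in qNSCs, 65.5 CPM (120 UMIs) in astrocytes and 31.2 CPM (228 UMIs) in neuroblasts. Grik2 was highest in the cells with Enpp6 and Bcas1, at 55.2 CPM (30 UMIs), and next in OPCs, at 42.5 CPM, 1.3-fold (0.774 to 2.16) apart. It was at 41 CPM in qNSCs, 32.6 CPM in neuroblasts and 20.2 CPM in astrocytes, and was detected in 14 of 53 oligodendrocytes. Mural cells had 1 UMI, and endothelial cells, fibroblasts and microglia had 0. Grik3 was at 40.2 CPM in OPCs and 31.8 CPM in neuroblasts against 1.64 CPM (3 UMIs) in astrocytes, and Grik4 at 47.1 CPM (41 UMIs) in OPCs and 31.9 CPM (21 UMIs) in ependymal cells, 1.48-fold (0.854 to 2.63) apart, against 1.23 CPM (9 UMIs) in neuroblasts. Of 14 members with at least 10 UMIs over both gates, Grik4 was the 1 at least 2-fold higher in ependymal cells than in qNSCs (26.3% of all genes tested), and 11 were at least 2-fold lower (17.9%), Gria1, Gria2, Gabrb1 and Grm3 among them. Grik1, with 71 UMIs in all, was highest in OPCs (10 UMIs) and astrocytes (20 UMIs).

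NMDA receptors need GluN1 (Grin1) together with GluN2 or GluN3 subunits, and the GluN2 type sets their kinetics. The dominant partner differed between gates. Grin2c was at 361 CPM (95% interval 334 to 390.0, 662 UMIs) in astrocytes and 61.4 CPM (31.7 to 107, 12 UMIs) in qNSCs, against 2.46 CPM (18 UMIs) in neuroblasts and 3.45 CPM (3 UMIs) in OPCs. Grin2b, the subunit of immature neurons, was at 68.3 CPM (62.5 to 74.6, 499 UMIs) in neuroblasts, 71.7 CPM (14 UMIs) in qNSCs and 49.1 CPM (90 UMIs) in astrocytes, and 1 UMI was found in OPCs, so neuroblasts exceeded OPCs 59.4-fold (10.6 to 2352). Grin3a, whose product lowers calcium entry, was at 186 CPM (159 to 217, 162 UMIs) in OPCs, 27.8 CPM in astrocytes, 20.5 CPM (4 UMIs) in qNSCs and 6.85 CPM in neuroblasts.

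Grin2c thus made up 80.7% of NMDA UMIs in astrocytes, Grin2b 73.1% in neuroblasts and Grin3a 81.8% in OPCs. OPCs exceeded neuroblasts 27.2-fold (19.7 to 38.1) in Grin3a, and after thinning it was found in 16.1% of OPCs (unthinned 56.6%). Grin2d was highest outside the neural lineage, with 53.8 CPM (18 UMIs) in brain fibroblasts and 36.9 CPM (16 UMIs) in mural cells against 10.7 CPM (78 UMIs) in neuroblasts. The required subunit, Grin1, had few UMIs (90 in all), 20 of them in OPCs and 34 in neuroblasts, and none in qNSCs, where 3 UMIs would be 15.4 CPM. In astrocytes Grin1 was detected in 3 of 399 cells and Grin2c in 280 (unthinned). Grin1 shares exon bases with Grin1os, and Grin2b with Gm14329 and Gm26653, which have counts, all on the opposite strand. Whether counting used strand was not given in the sources used here. Grin2a had 58 UMIs, most of them in lung.

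Among the metabotropic glutamate receptors, Grm3, which lowers cyclic AMP, led in astrocytes and Grm5, which raises calcium, in OPCs. Grm3 (chr5:9485541-9725170, minus strand) was at 409 CPM (95% interval 380.1 to 439, 749 UMIs) in astrocytes, 97.3 CPM (58.6 to 152, 19 UMIs) in qNSCs, 4.6 CPM (4 UMIs) in OPCs and 3.29 CPM (24 UMIs) in neuroblasts, which made astrocytes 4.2-fold (2.67 to 7.02) higher than qNSCs. Grm5 ran the other way, at 98.9 CPM (79.1 to 122, 86 UMIs) in OPCs, 11.5 CPM (21 UMIs) in astrocytes, 2.33 CPM (17 UMIs) in neuroblasts and 0 UMIs in qNSCs, and was 42.5-fold (25 to 76.2) higher in OPCs than in neuroblasts. Grm3 made up 97.1% of the family's UMIs in astrocytes and Grm5 82.7% in OPCs. Grm4 and Grm8, with 22 and 32 UMIs, had 11 and 13 of them in neuroblasts. Grm7 belonged to mural cells and is described with the vessels.

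GABA-A receptors are chloride channels of alpha, beta and gamma subunits, and Gabrb1 and Gabrg1 parted astroglia from neuroblasts. Gabrb1 (chr5:71658113-72149037, plus strand) was at 329 CPM (95% interval 303 to 356, 602 UMIs) in astrocytes and 292 CPM (221 to 378, 57 UMIs) in qNSCs, which differed by 1.13-fold (0.857 to 1.51), and at 1.78 CPM (13 UMIs) in neuroblasts, so qNSCs exceeded neuroblasts 164-fold (88.7 to 326). After thinning, Gabrb1 was found in 27.1% (16.4 to 40.3%) of qNSCs, 28.5% (24.1 to 33.3%) of astrocytes and 0.124% (0.0151 to 0.448%) of neuroblasts (unthinned 48.4%, 71.7% and 0.799%). It made up 67.1% of GABA-A UMIs in qNSCs and 53.7% in astrocytes. Gabrb2 lay the other way, at 13.1 CPM (96 UMIs) in neuroblasts against 1.64 CPM (3 UMIs) in astrocytes.

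Gamma subunits place the receptor at synapses. Gabrg1 was at 184 CPM (165 to 205, 337 UMIs) in astrocytes, 41 CPM (8 UMIs) in qNSCs and 1.23 CPM (9 UMIs) in neuroblasts. In 147 of 399 astrocytes both Gabrb1 and Gabrg1 were detected. Gabrg3 was found at 31.3 CPM (26 UMIs) in undivided astroglia, 19.7 CPM (36 UMIs) in astrocytes and 25.8 CPM (17 UMIs) in ependymal cells. It made up 42.5% of the 40 GABA-A UMIs in ependymal cells.

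The alpha subunits carry much of the drug sensitivity of the receptor. Gabra2 was at 46.4 CPM (85 UMIs) in astrocytes, 46.1 CPM (9 UMIs) in qNSCs and 7.53 CPM (55 UMIs) in neuroblasts, and Gabra4 at 24.6 CPM (45 UMIs), 20.5 CPM (4 UMIs) and 2.6 CPM (19 UMIs). Gabra4 and Gabrb1 share exon bases on opposite strands, so their counts may not be separate. Gabra3 had 9 UMIs in OPCs, its highest brain level at 10.3 CPM. The sum of GABA-A transcripts in qNSCs (435 CPM) was 2.98-fold (2.36 to 3.72) that of neuroblasts (146 CPM), and the sum in OPCs (147 CPM) was 1.01-fold (0.833 to 1.21) that of neuroblasts. Relative to qNSCs the OPC sum was 0.338-fold (0.255 to 0.45), and it was 0.224-fold with no upper limit on genes per cell, which left 199 cells in the OPC gate, and 0.528-fold (0.301 to 0.937) with cells thinned to 1000 UMIs.

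GABA-B receptors need both Gabbr1, which binds GABA, and Gabbr2, which reaches the G protein. Gabbr1 had UMIs in every brain gate, from 34.2 CPM (5 UMIs) in microglia to 327 CPM (599 UMIs) in astrocytes, with 220.1 CPM in qNSCs, 171 CPM in OPCs and 166 CPM in neuroblasts. Gabbr2 had UMIs in fewer gates, at 112 CPM (95% interval 97.1 to 128, 205 UMIs) in astrocytes, 31 CPM (27 UMIs) in OPCs and 3.83 CPM (28 UMIs) in neuroblasts, with 0 UMIs in qNSCs. Astrocytes were at least 7.29-fold higher than qNSCs with qNSCs set at 3 counts. Gabbr2 made up 25.5% of the pair's UMIs in astrocytes and 2.26% in neuroblasts, and 88 of 399 astrocytes had UMIs of both genes. Glra2, the glycine receptor subunit of immature neurons, had 26 UMIs, 23 of them in the neuroblast gate.

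Acetylcholine receptor genes were sparse in brain. Chrnb2, the beta subunit of the main neuronal nicotinic receptor, was at 15.1 CPM (110 UMIs) in neuroblasts, 1.64 CPM (3 UMIs) in astrocytes and 3.45 CPM (3 UMIs) in OPCs, and it overlaps Adar on the opposite strand. Its usual partner Chrna4, with 63 UMIs in all, was instead highest in OPCs at 24.1 CPM (21 UMIs) and in activated progenitors at 12.9 CPM (8 UMIs), 1.87-fold (0.795 to 4.88) apart, and had 1 UMI in 1628 neuroblasts. Chrnb1, a muscle nicotinic subunit, was highest in endothelial cells at 17.9 CPM (21 UMIs). Chrm4, with 55 UMIs, had 40 of them in neuroblasts, Chrm1 (23 UMIs) and Chrna5 (22 UMIs) had at most 8 in any gate, and Chrna9 had none in brain.

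Set side by side, the gates differed by counts of members as follows, taking genes with at least 10 UMIs over both gates and a CPM ratio of at least 2 or at most 0.5. Astrocytes had 7 of 19 members higher than qNSCs (15.8% of all genes tested) and 2 lower (14.9% of all genes). The 7 were Gria2, Grik1, Grin2c, Grm3, Grm5, Gabrg1 and Gabbr2, and the 2 were Gria1 and Grik2. With 0 read as 3 counts 5 were higher (10.7%), without Grik1 and Grm5. In activated progenitors 8 of 15 members were lower than in qNSCs (14.1% of all genes), among them Gria1, Grm3 and Gabrb1, and 1 was higher (23.9% of all genes). The median log2 ratio of these 15 was -1.01, against 0.12 over all genes tested.

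Neuroblasts had 16 of 31 members higher than qNSCs (34.8% of all genes) and 10 lower (23.4%), but 11 of the 16 had 0 UMIs in the small qNSC gate, and with 0 read as 3 counts 6 were higher (18.8% of all genes). Against astrocytes, 12 of 33 were higher in neuroblasts (32.2%) and 14 lower (22.8%). OPCs had 14 of 25 members higher than qNSCs (31.6%) and 7 lower (13.9%), or 10 higher with 0 read as 3 counts (26.9%). With cells thinned to 1000 UMIs, 6 of 11 were higher (33.2% of all genes), the median depths being 5447 UMIs in OPCs and 3253 in qNSCs. The median log2 ratio of the 25 was 1.90, against 0.31 over all genes. OPCs exceeded neuroblasts in 19 of 38 members (23.2% of all genes) and lay below them in 6 (19%), Grin2b, Grm8, Glra2, Chrnb2 and Chrm4 among them. Grm8, Glra2 and Chrm4 had 0 UMIs in OPCs, and 3 were lower with 0 read as 3 counts (14.5%). OPCs exceeded astrocytes in 12 of 27 (28.6%), with 8 lower (16.8%). OPC, neuroblast and astrocyte counts against qNSCs share the same qNSC cells.

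**Figure D2:**
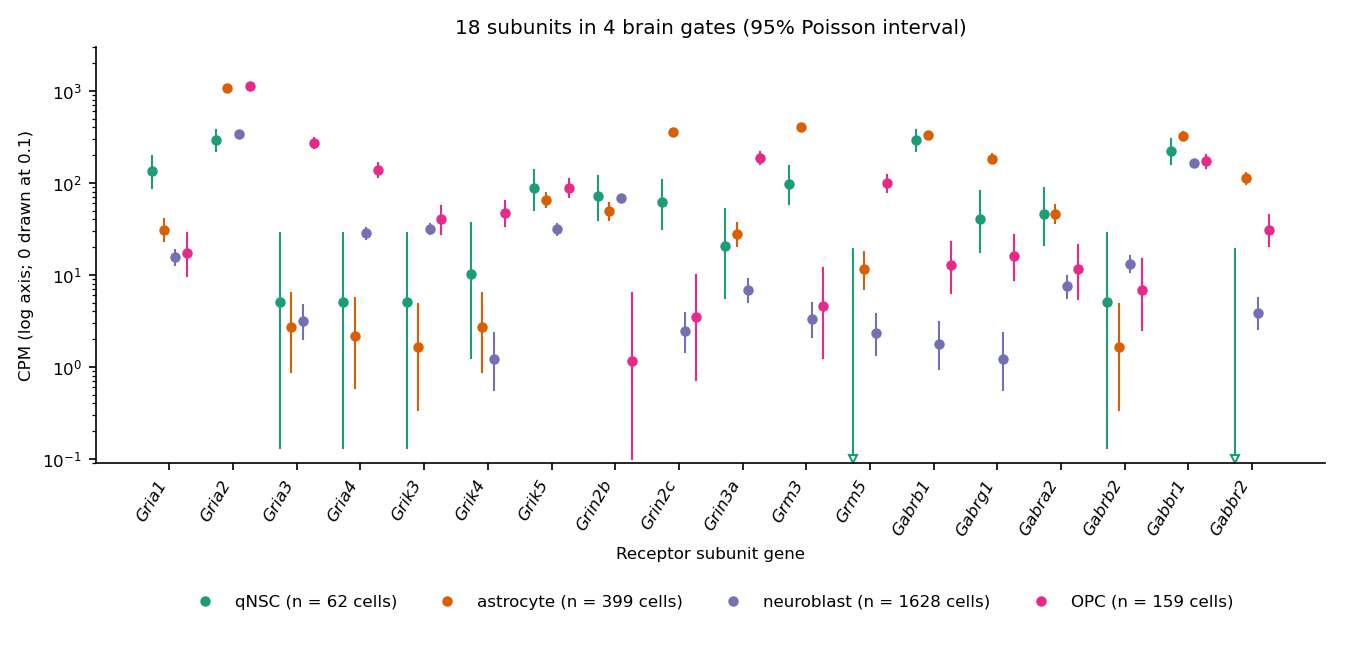
Level of 18 members in the qNSC, astrocyte, neuroblast and OPC gates (x axis genes, y axis CPM on a log scale), with points for the summed UMIs of a gate, bars for the 95% Poisson interval and open triangles for 0 UMIs. Gria3, Grin3a and Grm5 stand highest in OPCs, Grin2c, Grm3 and Gabrg1 in astrocytes, and Gria1 in qNSCs, while Grin2b is lowest in OPCs.

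Meg3, a noncoding RNA abundant in neurons, was used to part the 1628 neuroblasts into 3 equal parts by its share of a cell's UMIs (median depths 5319, 4246 and 3581 UMIs). From the Meg3-low over the Meg3-mid to the Meg3-high part, all members together went from 731 over 949.8 to 1214 CPM, a 1.66-fold (1.57 to 1.76) difference between the ends. 10 of 26 members were at least 2-fold higher in the high part (6.2% of all genes tested) and 0 lower (9.32%). The kainate subunit Grik3 was at 7.72, 38.6 and 59.9 CPM, 7.76-fold (4.93 to 12.7) between the ends, and its share of kainate UMIs went from 10.8% to 48.4%. GABA-A transcripts as a whole differed 1.95-fold (1.68 to 2.28).

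Smaller counts took the same direction. Grin3a was 2.81-fold (1.41 to 5.82) higher in the Meg3-high part, Gabbr2 6.05-fold (1.95 to 24.9), Chrm4 3.78-fold (1.59 to 9.92) and Glra2 12.1-fold (2.84 to 108), the last on 16 against 2 UMIs. Gria4 reached its level by the middle part, at 17.5, 35.6 and 36.6 CPM. Gria2 (1.63-fold, 1.48 to 1.8), Grin2b (1.54-fold, 1.24 to 1.91) and Gabbr1 (1.49-fold, 1.29 to 1.72) were higher by less than 2-fold, while Gria1 was at 17.5, 13.2 and 15.7 CPM.

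**Figure D3:**
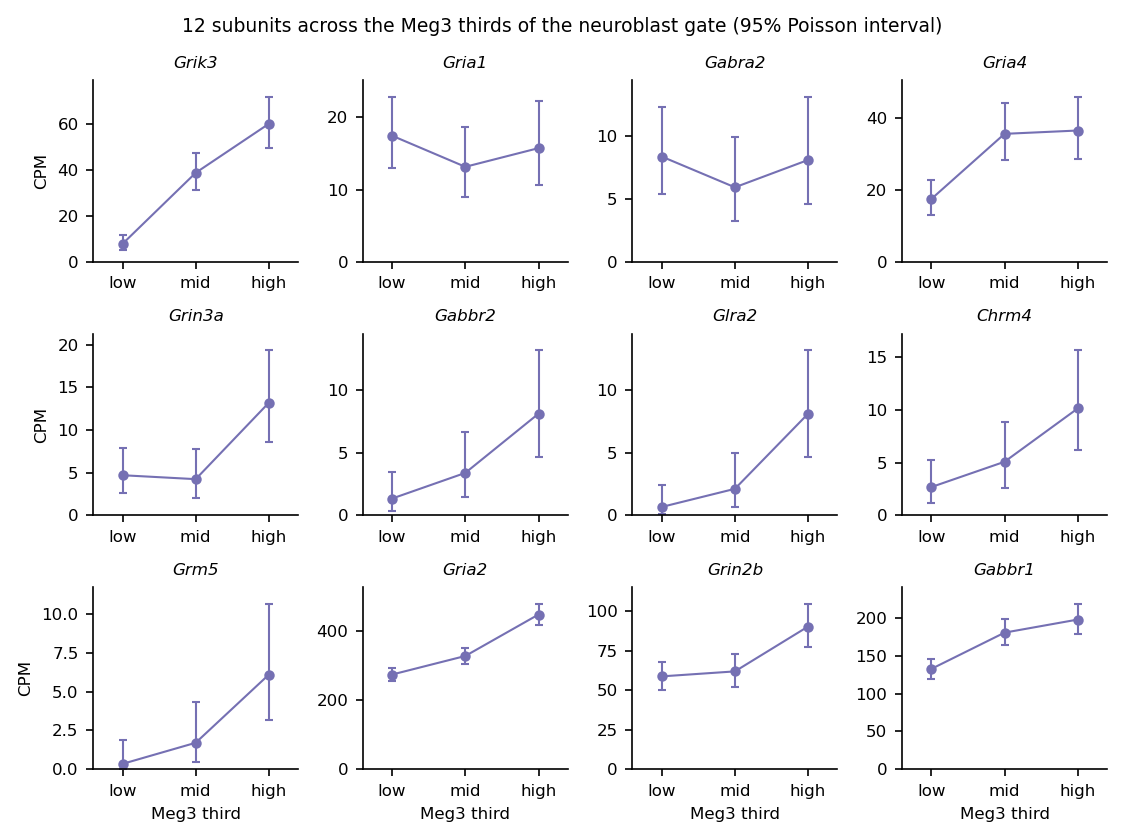
CPM of 12 members (y axis, from 0, a scale for each panel) in the Meg3-low, Meg3-mid and Meg3-high parts of the neuroblast gate (543, 543 and 542 cells), with 95% Poisson intervals. Grik3 goes from 7.72 to 59.9 CPM and Gria4 from 17.5 to 36.6 CPM, and the intervals of the end parts do not overlap for either.

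The Meg3-low part also held cells of another kind. A UMI of Eomes, Neurod1, Neurod2, Neurod6 or Tbr1, genes of the glutamatergic neuron lineage, was present in 70 of its 543 cells, against 7 of 543 and 1 of 542 cells in the other parts; this split was chosen after the values were seen. In the 78 cells with such a UMI, Gria1 was at 97.4 CPM against 9.82 CPM in the other 1550 neuroblasts, 9.92-fold (6.68 to 14.6), and was found in 30 of 78 against 58 of 1550 cells, unthinned and at median depths of 6066 and 4206.5 UMIs. Gabra2 was 10.9-fold (6.15 to 19.3) higher in them, Grin2b 1.93-fold (1.45 to 2.53) and Gria2 1.76-fold (1.55 to 2). Gria4 did not follow and was at 10.4 against 29.8 CPM. Without these cells, Gria1 too was higher in the Meg3-high part, at 15.8 against 4.32 CPM (3.65-fold, 1.79 to 8.05), Gabra2 was 5.18-fold (1.67 to 21.3) higher, and 11 of 24 members passed the 2-fold mark upward (7.19% of all genes in the same comparison) and 0 downward (7.98%).

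Along the oligodendrocyte lineage most receptor genes were lower in mature cells. Of 24 members with enough UMIs, 20 were at least 2-fold lower in the 53 oligodendrocytes than in OPCs (40% of all genes tested), or 19 with 0 read as 3 counts (39.1%), and 1 was higher (9.42%). Gria2 was at 166 CPM (95% interval 131 to 207, 78 UMIs) in oligodendrocytes against 1143 CPM in OPCs, Gria3 and Gria4 had 2 and 10 UMIs left, and Grin3a and Gabrb1 had 1 and 1. The 1 member higher was Grm3, at 87.3 CPM (62.7 to 118, 41 UMIs), 19-fold (6.88 to 73), and Gabbr1 kept 230.0 CPM (108 UMIs). The cells with Enpp6 and Bcas1 had 1736 CPM of AMPA transcripts (OPCs 1572 CPM) but 36.8 CPM of NMDA and 16.5 CPM of GABA-A transcripts, where OPCs had 228 and 147 CPM. Astroglial markers in oligodendrocytes lay between 0.543% and 2.08% of their astrocyte CPM, Grm3 at 21.4% and Gria2 at 15.5%, and the part of RNA from astrocytes, OPCs or the cells with Enpp6 and Bcas1 in these oligodendrocyte values was not tested.

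Brain mural cells, the pericytes and smooth muscle of vessels, carried a pair of metabotropic glutamate receptors. Grm3 was at 196 CPM (95% interval 157 to 242, 85 UMIs) in 160 mural cells against 3.41 CPM (4 UMIs) in 306 endothelial cells, 57.4-fold (21.6 to 215), and Grm7, an autoreceptor of nerve endings in neurons, at 87.6 CPM (62 to 120.3, 38 UMIs) against 0 UMIs, at least 34.2-fold with 3 counts in the endothelial gate. Thinned to 1000 UMIs, Grm3 was found in 17% (11.5 to 23.7%) of mural cells (unthinned 38.1%). Grm3 is also an astrocyte gene. In the mural gate 7 of 8 astroglial markers lay between 0.196% and 2.31% of their astrocyte CPM, and 1 was higher in the mural gate than in astrocytes. Grm3 was at 47.9% of its astrocyte CPM, and Gabrb1, Gabrg1 and Grin2c were at 0 UMIs. The part of astrocyte RNA in the mural Grm3 level was not tested. Grm7 shares exon bases with Gm20387 on the opposite strand. Of 6 members with at least 10 UMIs, 3 were higher in mural than in endothelial cells (16.8% of all genes), the other being Grin2d, and Chrnb1 was lower (19.8%).

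The lung pericytes, 2379 cells, showed neither gene at such a level. They had 0 UMIs of Grm3 and 5 of Grm7, so the brain mural gate, with pericytes set at 3 counts for Grm3, was at least 806-fold and 216-fold (85 to 704) higher. 7 of 12 members were at least 2-fold higher in brain mural cells (18.5% of all genes) and 1, Gabrg3, was lower (24.5%), on 0 UMIs in brain and 12 in lung, which 0 read as 3 counts removed (12.7%). Grin2d was 3.45-fold (1.92 to 5.81) higher. Between brain and lung endothelial cells 6 members could be compared, of which Gria2 and Chrnb1 were higher in brain (13% of all genes) and Grik2 and Grik5 lower (15.7%), both on at most 1 brain UMI, and with 0 read as 3 counts Grik5 alone was lower (14.6%). Chrnb1 was at 17.9 CPM (21 UMIs) in brain and 3.26 CPM (11 UMIs) in lung endothelium, 5.51-fold (2.54 to 12.6), and Gria2 is also the member with most UMIs in the astrocyte, OPC and neuroblast gates of the same brain library.

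Over whole libraries, the 42 members took 1156 CPM in brain and 115 CPM in lung, a 10.1-fold (9.73 to 10.4) difference. 34 members were at least 2-fold higher in brain (31.6% of all genes tested) and 4 higher in lung (16.1%), namely Grin2a, Gabra3, Chrna9 and Chrm2. Membership was set on UMIs summed over the same libraries, so a member that reached the minimum through 1 library, such as Chrna9 (0 brain and 68 lung UMIs), Glra2, Grm4 and Chrna5, had to differ, and these counts are a description from which nothing is read. Gria2 was the most extreme, with 10514 UMIs over all brain barcodes and 0 over all lung barcodes, at least 4547-fold in filtered cells. Glra2, Grm4 and Chrna5 also had no UMI in lung. Gabbr1 (43.7 CPM over all lung cells) had UMIs in 11 of 11 groups of lung cells, and Grik5 (10.9 CPM, 346 UMIs) and Gria3 (9.43 CPM, 300 UMIs) in 10 each. Grin2d had UMIs in 9, with 132 of its 421 UMIs in pericytes, 118 in cells with Dcn, described below, and 79 in myofibroblasts.

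In lung, Gria1 was at 80.5 CPM (95% interval 54.7 to 114, 31 UMIs) in 65 smooth muscle cells and 0.729 CPM (0.333 to 1.38, 9 UMIs) in pericytes, 110.4-fold (51.3 to 264). The next gate in order, matrix fibroblasts with 12 UMIs, was 2.36-fold (1.18 to 5.05) below smooth muscle, and 9 of 11 groups of lung cells had Gria1 UMIs. After thinning Gria1 was found in 10.8% (4.44 to 20.9%) of smooth muscle cells (unthinned 38.5%). The leading genes Actc1, Cnn1, Lmod1 and Acta2 of the smooth muscle gate are contractile genes, and of 8 mature neuron genes Nrgn alone had UMIs there. 4 of 12 members were higher in smooth muscle than in pericytes (13.6% of all genes), with Grin2a, Grin3a and Gabra3 on 3 to 6 UMIs beside Gria1, and the 4 lower members (30.9%) were all at 0 UMIs in smooth muscle, with 0 members lower once 0 was read as 3 counts (16.5%). In myofibroblasts, the kainate subunit Grik4 was at 24.5 CPM (95% interval 20.8 to 28.7, 155 UMIs) against 1.05 CPM (13 UMIs) in pericytes, 23.3-fold (13.2 to 44.7), and in 2.52% of thinned cells (unthinned 14%). Gria3 and Grin2a were the other two of 11 members higher in myofibroblasts (12.5% of all genes), and Grik1 and Gabrg3 were lower (12.8%). Pericytes exceeded lung endothelium in 4 of 11 members (20% of all genes), with most UMIs for Grin2d (3.01-fold, 1.67 to 5.97), or 2 with 0 read as 3 counts (18.5%), and Grik2 was lower (15.2%), with 12 of its UMIs in endothelium and 0 in pericytes.

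Most GABA-A transcripts of the lung lay in 1 group of cells. In 546 cells outside the gates that shared Dcn, Col14a1 and Mfap5, a group formed after the values were seen, Gabrg3 was at 34.6 CPM (95% interval 29.5 to 40.3, 165 UMIs) and Gabra3 at 27.3 CPM (22.8 to 32.4, 130 UMIs), most of the 190 and 153 UMIs in filtered lung cells. After thinning they were found in 4.03% and 3.66% of these cells (unthinned 21.4% and 18.5%), and 30 of the 546 had UMIs of both. Over the lung library Gabrg3 made up 47.1% and Gabra3 38% of GABA-A UMIs. The same cells had 27.9 CPM (133 UMIs) of Gria3, 24.8 CPM (118 UMIs) of Grin2d, 13.2 CPM (63 UMIs) of Grin3a and 12.4 CPM (59 UMIs) of Gria1. Gria3 was also at 56.8 CPM (20 UMIs) in matrix fibroblasts and 51.9 CPM (13 UMIs) in 27 epithelial cells. Chrm2, the muscarinic receptor of airway and heart muscle, had 45 UMIs in filtered lung cells, 20 of them in the cells with Dcn and 3 in smooth muscle.

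**Figure D4:**
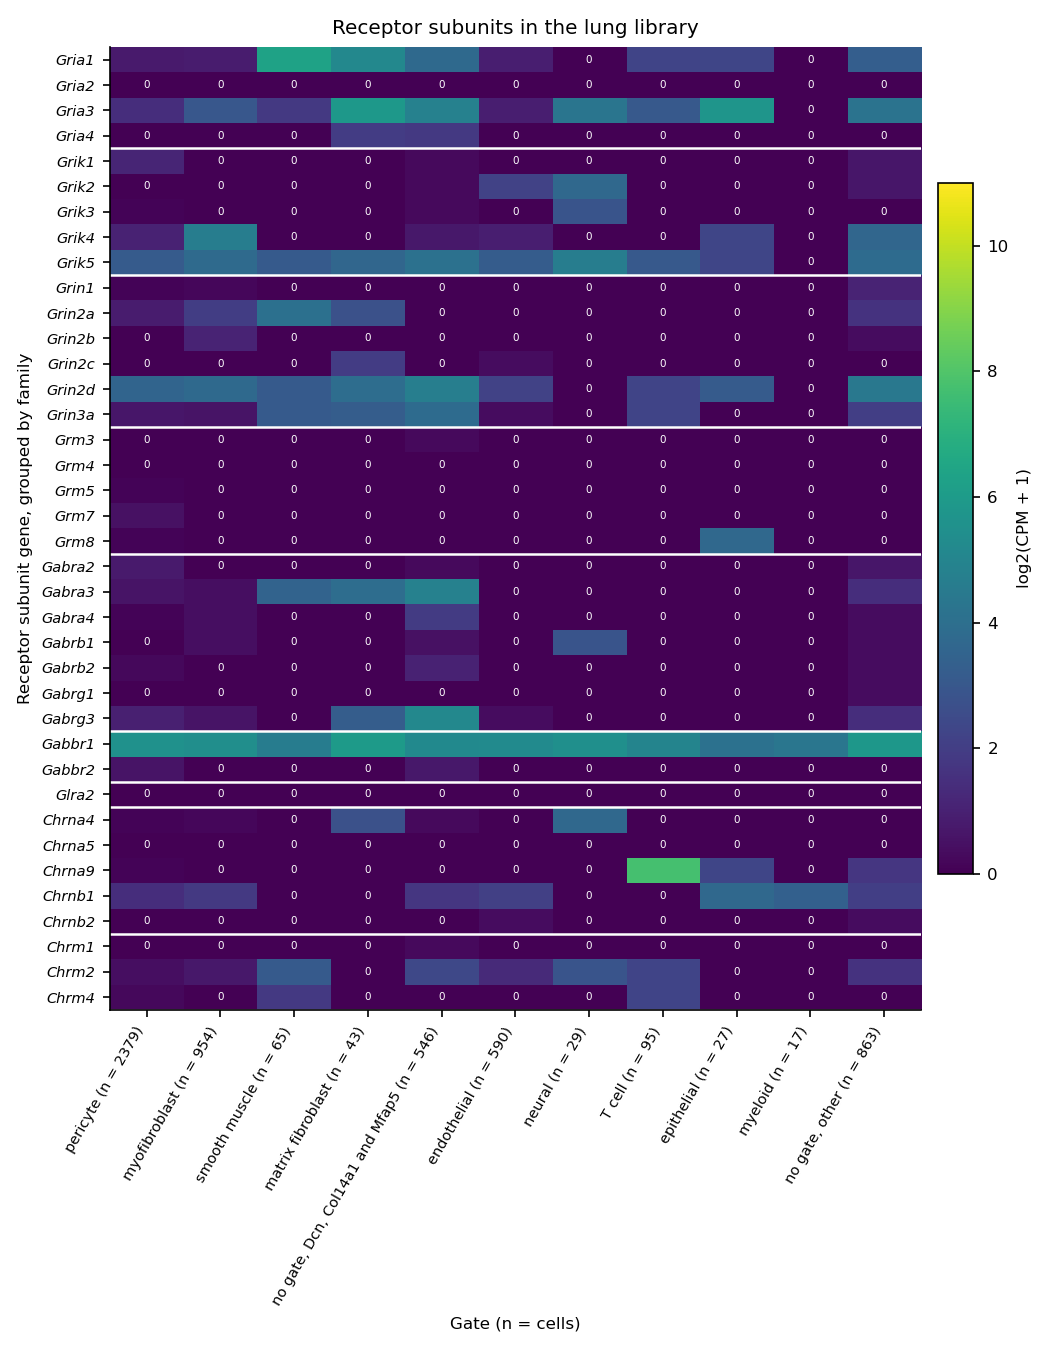
Level of 38 of the 42 members (rows, grouped by family) in 11 lung gates (columns, n = cells) as log2(CPM + 1), on the same colour scale as the brain map, with 0 marking no UMI. Most rows are dark, Gabbr1, Grik5 and Gria3 are seen in nearly all columns, and the brightest field is Chrna9 in T cells at 212 CPM.

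Chrna9 (chr5:65934921-65977326, plus strand), a nicotinic subunit best known from inner ear hair cells, was found in the lung T cell gate. Of its 67 UMIs in filtered lung cells, 57 lay in the 95 T cells, at 212 CPM (95% interval 161 to 275, 57 UMIs), and it was found in 21.1% (13.4 to 30.6%) of these cells after thinning (unthinned 38.9%). All 8 T cell markers, by which cells entered that gate, were detected in it, and its leading genes outside that list included Rag1 and Cd8b1. Within the gate, 71 cells with a UMI of Rag1 or Dntt, genes of T cell receptor rearrangement in immature T cells, held 56 Chrna9 UMIs in 36 cells, and the other 24 cells held 1, a comparison made after the values were seen. The median depth was 1698 UMIs in the former and 2230 in the latter. Of the 8 mature neuron genes, Camk2a, Nrgn and Thy1, the last also a gene of T cells, summed to 577 CPM in this gate, and the other 5 had 0 UMIs.

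The lung neural gate, 29 cells with Gfra3, Foxd3 and Sox10, had UMIs of all 8 markers by which its cells were chosen. It had UMIs of none of 8 mature neuron genes. Its members summed to 135 CPM (22 UMIs), 1.18-fold (0.739 to 1.79) of the rest of the lung, or 0.874-fold (0.18 to 2.57) with cells thinned to 1000 UMIs, and both intervals include 1. Gabbr1, Grik5 and Gria3 held 7, 4 and 3 of them. Grik2, Grik5 and Chrm2 were past 2-fold higher than in other lung cells on 1 to 4 UMIs each, 3 of 19 members (13.5% of all genes), and the 14 lower members (44.5%) were all at 0 UMIs, with 0 lower once 0 was read as 3 counts (9.5% of all genes). The subunits of brain qNSCs with most UMIs, Gria2 and Gabrb1, had 0 and 1 UMI. At this depth 3 UMIs equal 18.5 CPM, so the Gria1 and Gria2 levels of qNSCs (133 and 292 CPM) lay above the limit that their count of 0 allows there, and the Gabrb1 level of qNSCs (292 CPM) above the upper bound of 34.3 CPM.

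Genes that work with these receptors, 61 on a list of auxiliary subunits, scaffolds, transmitter enzymes and transporters, 58 of them with counts, were compared in the same way. OPCs had 21 of 33 higher than qNSCs (31.6% of all genes) and 4 lower (13.9%), or 19 higher with 0 read as 3 counts (26.9%). Neuroblasts had 18 of 40 higher than qNSCs (34.8%) and 12 lower (23.4%), or 11 higher with 0 read as 3 counts (18.8%). Oligodendrocytes had 27 of 32 lower than OPCs (40%), or 26 with 0 read as 3 counts (39.1%), and 4 higher (9.42%). Of 13 AMPA and kainate receptor auxiliary subunits, 6 were higher in OPCs than in neuroblasts (23.2% of all genes) and 5 lower (19%). With 0 read as 3 counts, 3 were lower (14.5%). Cacng4 was at 400.0 CPM in OPCs and 101 CPM in neuroblasts (3.97-fold, 3.48 to 4.52). Cacng5 and Cacng2 lay the other way, at 2.3 against 95.8 CPM and 1.15 against 37.4 CPM. The GABA transporter gene Slc6a11 was at 518 CPM in astrocytes and 251 CPM in qNSCs. Between the Meg3 parts of the neuroblasts, 7 of 35 related genes were higher in the Meg3-high part (6.2% of all genes) and 2 lower (9.32%). Of 14 scaffolds 4 were higher, with Shank1 (3.73-fold, 3.05 to 4.6) and Grip1 (3.42-fold, 2.82 to 4.17) among them. The auxiliary subunit Cacng2 was also higher (3.77-fold, 2.74 to 5.25). Slc17a6, the vesicular glutamate transporter, had 2 UMIs in the Meg3-high part against 65 in the Meg3-low part.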

How the data were processed

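Nes-GFP+ cells of 1 brain and 1 lung library were sequenced with a 10x Genomics 3′ kit. Per the submitters' processing notes, the authors used bcl2fastq 2.19.1.403, UMI-tools 1.0.0 (the methods name a later version), STAR 2.7.1a, mm10 and featureCounts 1.6.4. The annotation release and the strand setting were not given in the sources used here, so genes with shared exon bases (16 members, 8 of them with a gene that has counts) may not be separate. The authors deposited raw counts of UMIs per gene and barcode. The filter of the methods (more than 200 and fewer than 4000 genes, under 40% mitochondrial UMIs) was applied to 4640 brain and 5981 lung barcodes, which are as many as the cells the study shows, so it left out cells that the study kept, 418 brain and 307 lung cells for their number of genes among them. The library totals before filtering were 26221173 and 36816962 UMIs, and 11 barcodes were kept in both libraries.

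A cell entered the gate of the list of 8 markers of which it had most, if at least 4 were present and it led every other list by at least 2. The astroglia were divided by at least 2 UMIs of Gfap plus Thbs4 with none of Slc7a10 or Cxcl14 (qNSC), or at least 2 of Slc7a10 plus Cxcl14 with no Thbs4 (astrocyte). Cycling cells had at least 4 of 8 cell cycle genes (neuroblasts at least 2 Dcx UMIs, progenitors none), and activated progenitors at least 2 of 3 activation genes. UMIs were summed over the cells of a gate and divided by the gate's total (CPM), so shallow gates carry wide intervals. Intervals are exact Poisson for levels, conditional binomial for ratios and Clopper-Pearson for shares of cells, and cover counting error only. The level and ratio intervals were run on simulated Poisson counts, the error they assume, so that run could not show how they fare with spread between cells. No p-value was computed, since cells are not replicates.

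A ratio was counted as past the fold at 2 or 0.5 with at least 10 UMIs over both gates, in 14 planned and 4 added comparisons, and median log2 ratios used 0.5 UMI added. A bound against 0 UMIs was set with 3 counts per gate. Members with at least 100 UMIs were named with values, others by total and highest gate, and genes of the related list where past the fold with at least 50 UMIs. Scrublet (scanpy 1.11.5, expected rate 0.06), Python 3.11.15, numpy 2.4.6, scipy 1.17.1 and pandas 2.3.3 were used, gene positions are from GENCODE M21, and promoter windows are from RefSeq. A few members and other genes are not reported here by name, and counts and sums over the members include them. The members and lists were chosen with earlier results of these data known. The 4 added comparisons, the 2 groups of cells outside the gates, the reading of 0 as 3 counts and the division of neuroblasts by Eomes, Neurod1, Neurod2, Neurod6 and Tbr1 were chosen after the data were seen.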

Additional observations from a re-analysis of the deposited data

How the results depend on the processing

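With 1 library per organ, no replicate could be left out and organ and library cannot be told apart. No paired analysis was possible because each group has 1 library and the groups share fewer than 2 replicate numbers. Of 92 alternatives run over 9 results, 81 stayed within the counting interval (for counts of members, within 1.5 times), 11 moved and 0 turned a ratio whose interval lay clear of 1. Part of this was fixed in advance. The gate minimum and lead do not enter the ratio of all brain to all lung cells, which stayed at 10.1. Removing Scrublet doublets took no cell from the OPC and qNSC gates, and some settings left the same cells as each other. The 81 is thus not read as a measure of robustness. The ratio of all members in the lung neural gate to other lung cells, whose interval included 1, was 1.18 and 0.874 with thinned cells. The ratio of GABA-A transcripts in OPCs to qNSCs was 0.338, 0.224 both with all barcodes and with no upper limit on genes per cell, and 0.528 with cells thinned to 1000 UMIs. The ratio of GABA-A transcripts in Meg3-high to Meg3-low neuroblasts was 1.95, 1.63 with thinned cells and 2.19 without the cells with Eomes, Neurod1, Neurod2, Neurod6 or Tbr1. The ratio of all members in brain to lung was 10.1, with 9.47 for all barcodes, 9.45 with no upper limit on genes, 9.67 without mitochondrial and ribosomal protein genes and 11.6 with thinned cells. The number of members at least 2-fold higher in neuroblasts than in qNSCs was 16, and 6 with 0 UMIs read as 3 counts (18.8% of all genes). In OPCs against qNSCs it was 14, with 6 of 11 in thinned cells (33.2% of all genes) and 23 of 37 with no minimum of UMIs (39.4% of all genes). The last 3 counts differ by construction, since thinning removes UMIs and the minimum removes members. The cause of the other shifts was not tested. Small gates carried wide limits, since 1 UMI equals 5.12 CPM in the 62 qNSC cells and 6.15 CPM in the 29 cells of the lung neural gate.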

Other observations

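Of 12 related genes with at least 10 UMIs, 4 were higher in brain mural than in brain endothelial cells (16.8% of all genes) and 2 lower (19.8%). Lung pericytes had 13 of 23 higher than lung endothelium (20%) and 5 lower (15.2%). Slc12a2, the chloride importer that sets how a cell answers GABA-A channels, was at 869 CPM in brain mural cells and 35 CPM in brain endothelium (24.8-fold, 18 to 35.2). In lung it was at 327 CPM in pericytes, 23.7 CPM in endothelium (13.8-fold, 11.1 to 17.5) and 7.79 CPM in smooth muscle. Slc12a5, the other chloride transport gene listed, went the other way and was lower in lung pericytes than in lung endothelium. Ache, acetylcholinesterase, was at 8.18 CPM in lung pericytes and 0.296 CPM in lung endothelium. Over whole libraries 37 of 53 related genes with at least 10 UMIs were at least 2-fold higher in brain (31.6% of all genes) and 1 lower (16.1%). In brain mural cells, the GABA-A members summed to 5 UMIs, and in lung pericytes to 33 UMIs over 2379 cells.

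Some members with few UMIs lay mostly in a single gate of the lung. Grik1 had 15 of its 18 UMIs in filtered lung cells in pericytes, and Grik2 had 12 of 17 in endothelium. Grm8 had 3 UMIs in 27 lung epithelial cells and 1 in all other gates of that library. Gabra2 had 9 of 12 lung UMIs in pericytes. Grin2a, the GluN2A subunit of mature synapses, had 44 UMIs in filtered lung cells, 19 of them in myofibroblasts and 6 in smooth muscle, and 13 in filtered brain cells, of which 5 lay in ependymal and 4 in mural cells.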
